A study of Mus musculus with 15 samples.

Results

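The 4 silica nanoparticle treatments of the series were pooled here and set against the nontreated controls, to describe the genes that moved the same way whichever particle the macrophages had taken up. All 15 libraries of the series entered, 12 from treated cells and 3 from controls. Each treated group had the same weight, so that the pooled change of a gene is the average of its 4 group means minus the control mean, on the log2 scale. The cells were RAW 264.7, an established mouse macrophage cell line, harvested at 6 h in every group. The SNP100 group received nonporous spheres of 100 nm nominal diameter at 50 µg/mL, and the SNP50 group nonporous spheres of 50 nm at 25 µg/mL. The MSNP group received mesoporous spheres of 100 nm at 200 µg/mL, and the HMSNP group hollow mesoporous spheres of 100 nm at 200 µg/mL. The Control group received no particles, and each group held 3 libraries. The study set each dose at the highest concentration it had found nontoxic for that particle, so the doses differ between groups, and a difference between groups is one between treatments as given rather than between particles at a matched dose. A single cell line served as the model, and no source used here says whether the 3 replicates of a group came from separate cultures, so the p-values measure the spread between these libraries, which may be technical.

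Macrophages engulf particles at the plasma membrane, through scavenger receptors among others, and deliver them to lysosomes, whose hydrolases work at the low pH that the vacuolar ATPase, a proton pump, maintains. Lysosomal load is sensed by the Rag GTPases together with folliculin and its partners, which hold transcription factors of the MiT/TFE family in the cytosol or release them to switch on lysosomal genes. Macrophages also carry stress-responsive factors of the AP-1 and ATF families, NF-kB-driven cytokine genes, a low basal expression of interferon-stimulated genes, and a heme and iron handling programme around heme oxygenase.

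Gene totals lay between 29369934 and 42617812 counts per library, and 19839 of the 57186 listed genes had at least 10 counts over all libraries and were tested. The summed level of 12 macrophage markers was 13874 to 17579 CPM (counts scaled by the TMM-adjusted library total) in the treated libraries and 16550 to 21084 CPM in the controls. Of 19 markers of T, B and NK cells, neutrophils, fibroblasts, epithelium and endothelium, 16 had at most 3 counts in every library and 8 were at 0 throughout, and their sum stayed at 0.165 to 0.550 CPM in treated libraries and 0.426 to 0.549 CPM in controls. Control replicate 3 stood apart from the other libraries, with a limma voom quality weight of 0.04675 where the other 14 had 0.418 to 3.34. The sample titles carry a different number for each group, and the labels do not say what it stands for. If it marks a batch, batch and treatment cannot be told apart in any comparison below.

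In the pooled contrast, 792 genes rose and 807 fell at an adjusted p under 0.05 (edgeR quasi-likelihood test with Benjamini-Hochberg adjustment), which is 3.99% and 4.07% of the tested genes. Independently of any test, 186 genes (0.938%) were higher in all 12 treated libraries than in all 3 controls and 232 (1.17%) were lower. Both properties together held for 166 higher genes (0.837%) and 201 lower genes (1.01%), and these 367 are called the shared genes below. They comprised 335 protein-coding genes, 20 lncRNA genes, 10 pseudogenes and 2 genes of another class or with none, and 328 had a mean of at least 1 CPM. In bulk RNA, fewer cells that express a gene and less of its RNA per cell cannot be told apart. The counts depended on the controls and on one particle. Without Control replicate 3 the shared genes numbered 411 higher and 420 lower, without Control replicate 2 they numbered 448 and 396, and with the MSNP group left out of the average they numbered 45 and 98.

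**Figure D1:**
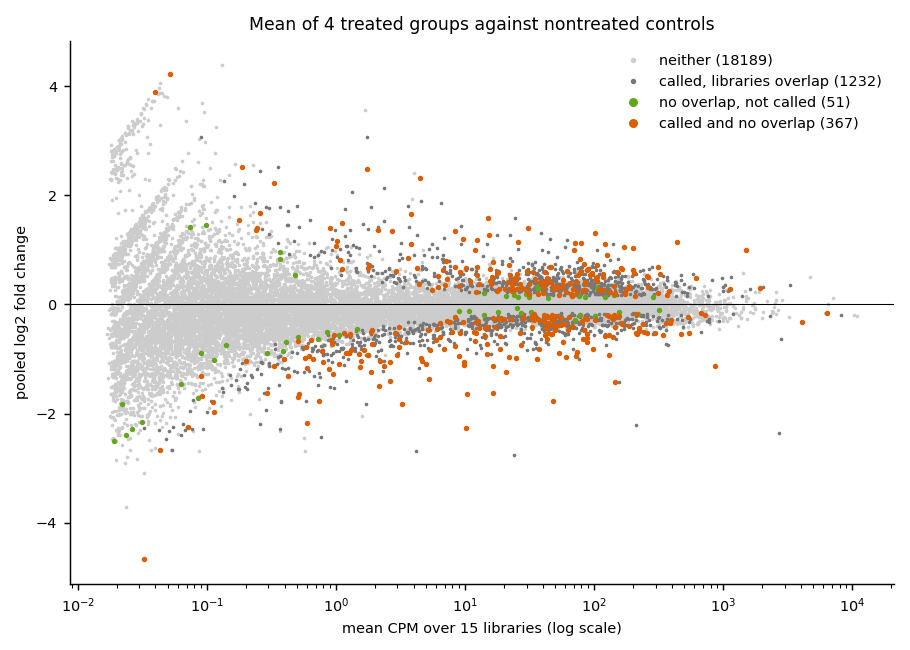
Each point is 1 of the 19839 tested genes, with its mean CPM over 15 libraries on a log axis and its pooled log2 fold change on the vertical axis. The 367 shared genes, called and with no overlap between treated and control libraries, lie on both sides of 0 among 1232 genes that were called but whose libraries overlapped.

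Among the shared genes the size of the change was uneven. For SNP100, SNP50, MSNP and HMSNP, the medians over the higher genes were 0.33, 0.29, 1.07 and 0.31 on the log2 scale, and those over the lower genes -0.35, -0.38, -1.03 and -0.43. MSNP held the largest change of the 4 groups in 300 of the 367 genes and the smallest in 22. A test of equality among the 4 treated groups, which does not use the control means, was passed by 130 of the 166 higher genes and 143 of the 201 lower genes (edgeR F test, adjusted p under 0.05). Over all tested genes 24.7% passed it, but the shared genes were chosen on values that include the treated means, so nothing is read from their count beside that share. The number of all genes that passed it was 4906, or 9665 without Control replicate 3 and 9993 with only the 12 treated libraries in the model. A pooled log2 fold change of at least 1 was reached by 34 higher and 44 lower genes, and a change of that size in every group by 8 and 5. The distance between the nearest treated and the nearest control library was small for most of them, with a median of 0.058 on the log2 scale for the higher and 0.076 for the lower genes, and 8 genes had a distance of at least 0.5. In 2 of the higher genes the control side held no count at all. The nearest control library was Control replicate 1 in 143 genes, Control replicate 2 in 150 and Control replicate 3 in 74. The shared higher genes had a median exon length of 6313 bases and the lower genes 4993, beside 4288 for all tested genes. Over the 10677 genes with a mean above 2 CPM, the median pooled change was -0.18 in the shortest of 10 length bins and 0.13 in the longest. With an offset per library that removes this trend, 340 of the 367 shared genes were called again in the same direction and 244 still had no overlap.

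When 1 library at a time was left out, between 330 and 360 of the 367 genes were called again in the same direction, the fewest without Control replicate 1. Leaving out a whole treated group kept 347 calls without SNP100, 341 without SNP50, 334 without HMSNP and 131 without MSNP. With MSNP left out, 0.332% of the tested genes were called higher and 0.712% lower in all, and without Control replicate 3 these shares were 7.18% and 6.07%. Among single groups, SNP100 alone had 0.509% of the tested genes called higher and 0.403% lower. SNP50 alone had 0.454% and 0.958%. The MSNP comparison had 11.8% and 11.0%, and that of HMSNP 2.46% and 2.7%. The counts of list members under these settings and in these groups, given further on, are to be read against these shares. Those in the pooled contrast are to be read beside 3.99% higher and 4.07% lower, and shared list members beside 0.837% and 1.01%. Over all tested genes the pooled contrast had 1080 called higher and 1029 lower with DESeq2, and 2591 and 2642 with limma voom. List counts from those 2 methods are to be read beside these. No share over all genes is given for an unadjusted p, so list counts at that threshold describe direction only.

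**Figure D2:**
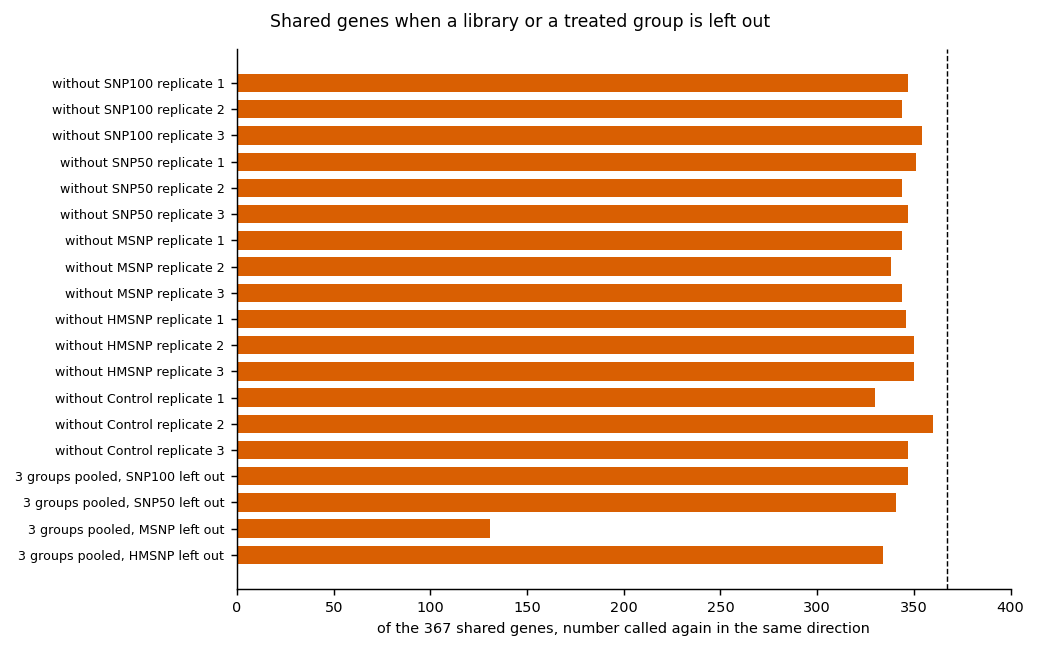
Bars give how many of the 367 shared genes were called again in the same direction when 1 library or 1 treated group was left out and the scaling recomputed. The calls fall to 131 when MSNP is left out, and the dashed line marks 367.

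Against the controls one group at a time, SNP100 had 101 genes called higher and 80 lower, SNP50 90 and 190, MSNP 2348 and 2179, and HMSNP 489 and 535. Since these 4 comparisons use the same 3 controls, they are not independent. In the same direction in each of them, 13 genes were called higher (0.0655% of tested genes) and 26 lower (0.131%). Without Control replicate 3 these counts were 72 and 101, and with the MSNP libraries left out 5 and 14 genes were called in each of the 3 remaining comparisons. The 13 higher genes were Gpr176, Plk2, Pmp22, 4930430E12Rik, Mcoln2, Tmem154, Galnt6, Atf3, Hk3, Ttyh2, Pacc1, Fam20c and Eepd1. Among the 26 lower genes were Olr1, Tgfbi, Bmf, Cav1, Rtp4, Neurl3, Hspa1b, Hmox1, Pdcd4, Tmeff1, Pald1, Rcan1, Ankrd37, Olfml3, Nectin3, Cd207, Ddit4, Rhof, Jdp2, Tmbim1, Zyx, Tsku, Sema4a, Mboat7 and Sesn1.

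**Figure D3:**
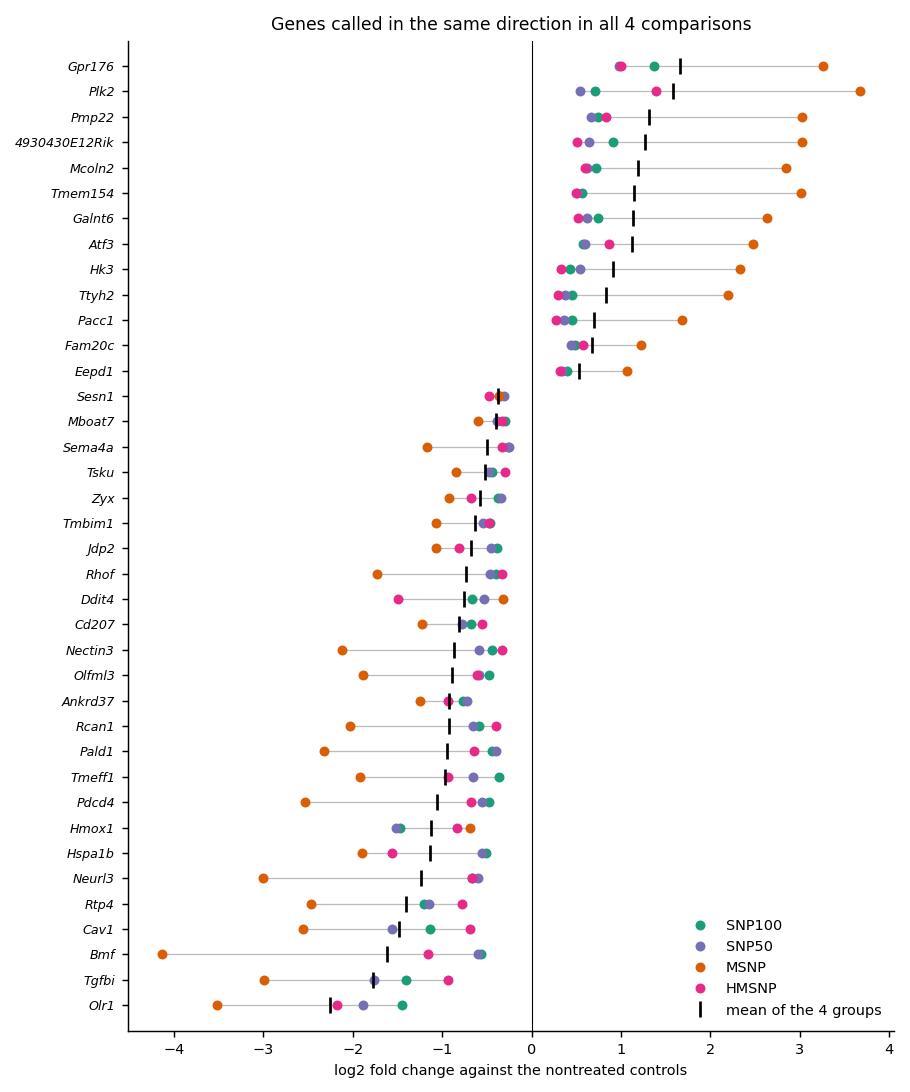
Fitted log2 fold changes against the controls are shown for the genes named in the text among those called in the same direction in all 4 comparisons, 1 coloured point per particle and a black bar for their mean. The MSNP point is the outermost for most genes, while Hmox1 and Ddit4 have theirs nearest to 0 and the 4 points of Sesn1 nearly coincide.

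Atf3, a stress-induced transcription factor of the ATF family that dimerises with AP-1 proteins, lies on chromosome 1 at 190902493 to 190950241 (GRCm39, minus strand). The controls had 30.8, 31.1 and 31.6 CPM, and the treated libraries ran from 44.0 to 181.6 CPM with a median of 52.3. No treated library came near the narrow control range. MSNP was highest with 169 to 182 CPM, while SNP100 and SNP50 lay between 44.0 and 49.7 CPM. The pooled change was 1.13 ± 0.055 (log2, SE), with 0.57, 0.60, 2.48 and 0.86 in SNP100, SNP50, MSNP and HMSNP, and an adjusted p of 1.5e-08 (edgeR). With MSNP left out it was 0.69 and still called.

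Pmp22, a tetraspan membrane protein best known from myelin (chromosome 11, 63019718 to 63050600, GRCm39), had 34.1, 33.8 and 39.8 CPM in the controls and 55.0 to 299.0 CPM in the treated libraries, with a median of 60.8. All 9 libraries of SNP100, SNP50 and HMSNP sat between 55.0 and 67.2 CPM, above every control, and the MSNP libraries far above them. The pooled log2 change of 1.32 ± 0.063 was called (adjusted p = 1.28e-08, edgeR), as was the change of 0.76 without MSNP. Plk2, a polo-like kinase that is also a p53 target (chromosome 13, 110531015 to 110537379), had 4.32, 4.31 and 3.10 CPM in the controls and a treated range of 4.99 to 50.9 CPM with a median of 8.03. Here HMSNP was second to MSNP, at 9.61 to 11.0 CPM, while SNP50 came closest to the controls. Its pooled change was 1.58 ± 0.10, with group values of 0.71, 0.55, 3.67 and 1.40 in the same order as above.

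Gpr176, an orphan G protein-coupled receptor, showed 1.34, 1.42 and 0.625 CPM in the controls and 2.02 to 11.3 CPM in the treated libraries, with a median of 2.37. Its change was at least 0.98 on the log2 scale in every group, the largest least-changed value among the genes called higher in all 4 comparisons, and the pooled change was 1.66 ± 0.19. Gpr176 shares its strand with Gm29232, so the reads of these neighbours may be mixed. Mcoln2, a cation channel of endolysosomal membranes, had 4.17, 4.08 and 2.97 CPM in the controls and 4.91 to 27.2 CPM in the treated libraries, with a median of 6.11. The lowest treated library, from HMSNP, was above the highest control by less than 1 CPM, and the pooled change was 1.196 ± 0.099.

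The other genes called higher in all 4 comparisons had pooled log2 changes from 0.53 to 1.27. Eepd1, the smallest, had 15.1 to 16.7 CPM in the controls and 18.4 to 34.7 CPM in treated libraries. Galnt6, which starts mucin-type O-glycosylation, had a pooled change of 1.13, Tmem154, a transmembrane protein, 1.15 and the lncRNA gene 4930430E12Rik 1.27. Hk3, a hexokinase of myeloid cells, changed by 0.91 and rose from 60.9 to 64.7 CPM in controls to at least 75.5 CPM. Fam20c, the Golgi kinase of secreted proteins, changed by 0.68, Ttyh2, a tweety family membrane protein, by 0.83, and Pacc1, a proton-activated chloride channel, by 0.70. All of these were called again with MSNP left out.

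Further genes with no overlap and a large change in their least-changed group were called in the pooled contrast without being called in every single comparison. Ahnak2, a very large scaffold protein, had 6.76, 6.48 and 4.11 CPM in the controls and 6.763 to 26.1 CPM in the treated libraries, so the lowest HMSNP library lay just above Control replicate 1. Lilrb4b, an inhibitory immunoglobulin-like receptor, had a pooled change of 1.05 ± 0.15 from a control range of 72.4 to 103.9 CPM to a treated range of 119 to 380 CPM. Lilrb4b has close paralogs and overlaps Gm49339 on its strand, and its counts are uncertain for that reason. Baiap2l1, which binds and bends membranes, had 0.376 to 0.579 CPM in the controls and 0.608 to 2.21 CPM in treated libraries, with a pooled change of 1.17 that was lost with MSNP left out (adjusted p = 0.122). Gm11382, a pseudogene, and Gm10419, a lncRNA gene, had pooled changes of 1.49 and 1.07, and both calls were lost with MSNP left out, with adjusted p-values of 0.0562 and 0.145 (edgeR).

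Olr1, the receptor for oxidised low-density lipoprotein, fell most among the genes called lower in all 4 comparisons. It lies on chromosome 6 at 129462207 to 129484128 (GRCm39, minus strand). The controls had 29.02, 31.2 and 18.8 CPM, and the treated libraries 2.12 to 10.1 CPM with a median of 6.599. Every treated library was below Control replicate 3, itself the lowest control, and the groups kept apart from each other, with SNP100 at 9.19 to 10.1 CPM, SNP50 at 6.99 to 7.40, HMSNP at 4.97 to 6.21 and MSNP at 2.12 to 2.48. The pooled log2 change was -2.26 ± 0.11 (adjusted p = 1.28e-08, edgeR), and it was -1.83 without MSNP.

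Cav1, the coat protein of caveolae, had 4.63, 3.64 and 4.32 CPM in the controls and 0.562 to 2.94 CPM in treated libraries, with a median of 1.61. The HMSNP libraries were nearest to the controls, at 2.26 to 2.94 CPM, and the MSNP libraries lowest, at 0.562 to 0.889 CPM. Its pooled change was -1.49 ± 0.11, with -1.14, -1.57, -2.56 and -0.69 in SNP100, SNP50, MSNP and HMSNP. Tgfbi, a secreted matrix protein, went from 1.56 to 1.64 CPM in controls to 0.132 to 0.939 CPM, with a pooled change of -1.77 ± 0.17.

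Hmox1, the inducible heme oxygenase that breaks down heme (chromosome 8, 75820241 to 75827217, GRCm39), had another order. The controls had 1537, 1699 and 1283 CPM, and the treated libraries 458.5 to 1109 CPM with a median of 615. SNP100 and SNP50 were lowest, at 458 to 616 CPM and 471 to 569 CPM, MSNP lay at 896 to 969 CPM, and the HMSNP libraries spread from 615 to 1109 CPM. The pooled change was -1.13 ± 0.13, with -1.47, -1.52, -0.68 and -0.83 in the 4 groups, which differed among themselves (adjusted p = 0.0023, edgeR F test). Without MSNP the pooled change was -1.26.

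Bmf, a BH3-only protein that promotes apoptosis, had 29.4, 31.5 and 26.3 CPM in the controls, and its treated libraries ran from 1.42 to 21.1 CPM with a median of 15.1. Pdcd4, an inhibitor of translation initiation, had 14.3 to 16.9 CPM in controls and 2.56 to 11.7 CPM in treated libraries. Neurl3, a ubiquitin ligase, had 28.1 to 41.6 CPM in controls and 3.71 to 23.5 CPM in treated libraries. In these 3 genes the log2 changes were -4.13, -2.53 and -3.01 in MSNP and between -0.47 and -1.16 in the other groups. Hspa1b, an inducible heat shock protein with a near-identical copy in Hspa1a that makes its counts uncertain, had 26.6, 27.9 and 27.7 CPM in the controls and 6.94 to 20.9 CPM in treated libraries. Its larger changes were in MSNP (-1.90) and HMSNP (-1.56), and SNP100 and SNP50 had -0.51 and -0.56.

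Rcan1, an inhibitor of calcineurin, had 188.8 to 210.9 CPM in the controls and 47.6 to 156.8 CPM in treated libraries, and its pooled change was -0.92 ± 0.053. Pald1, a protein with phosphatase-like domains, had 107.4, 109.2 and 108.3 CPM in the controls and 21.6 to 83.5 CPM in treated libraries, a pooled change of -0.95 ± 0.044. Atf3, Pald1 and Pmp22 are genes that the study itself singled out for all 4 groups on these samples, so their direction here is not independent evidence. Cd207, the C-type lectin langerin, had 23.6 to 34.9 CPM in controls and 11.6 to 20.4 CPM in treated libraries. Olfml3, a secreted glycoprotein, changed by -0.89 and Tmbim1, a membrane protein of the Bax inhibitor family, by -0.64. Olr1, Cav1, Tgfbi, Hmox1, Bmf, Pdcd4, Neurl3, Hspa1b, Rcan1, Pald1, Cd207, Olfml3 and Tmbim1 kept their pooled call with MSNP left out.

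In some genes no difference among the treated groups was called. Sesn1, a sestrin that restrains mTORC1, had 68.8, 69.6 and 66.4 CPM in the controls and 47.9 to 55.1 CPM in treated libraries, with a median of 53.8. The treated libraries lay closer to each other than to any control. Its group changes were -0.35, -0.31, -0.36 and -0.48, the pooled change was -0.37 ± 0.043, and no difference among the treated groups was called (adjusted p = 0.15, edgeR F test). Ankrd37, an ankyrin repeat protein known as a hypoxia target, had 4.22 to 5.39 CPM in controls and 1.92 to 3.68 CPM in treated libraries, and its changes of -0.77, -0.72, -1.25 and -0.93 were not called different either (adjusted p = 0.084). In all, 36 of the higher and 58 of the lower shared genes had no called difference among the treated groups, which does not show that their changes are equal. Ddit4, an inhibitor of mTORC1 signalling, was one of the 34 shared genes in which HMSNP changed most. Its controls had 11.7, 12.5 and 11.8 CPM, MSNP had 9.34 to 9.98 CPM and HMSNP 4.14 to 4.41 CPM, for log2 changes of -0.32 and -1.49.

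**Figure D4:**
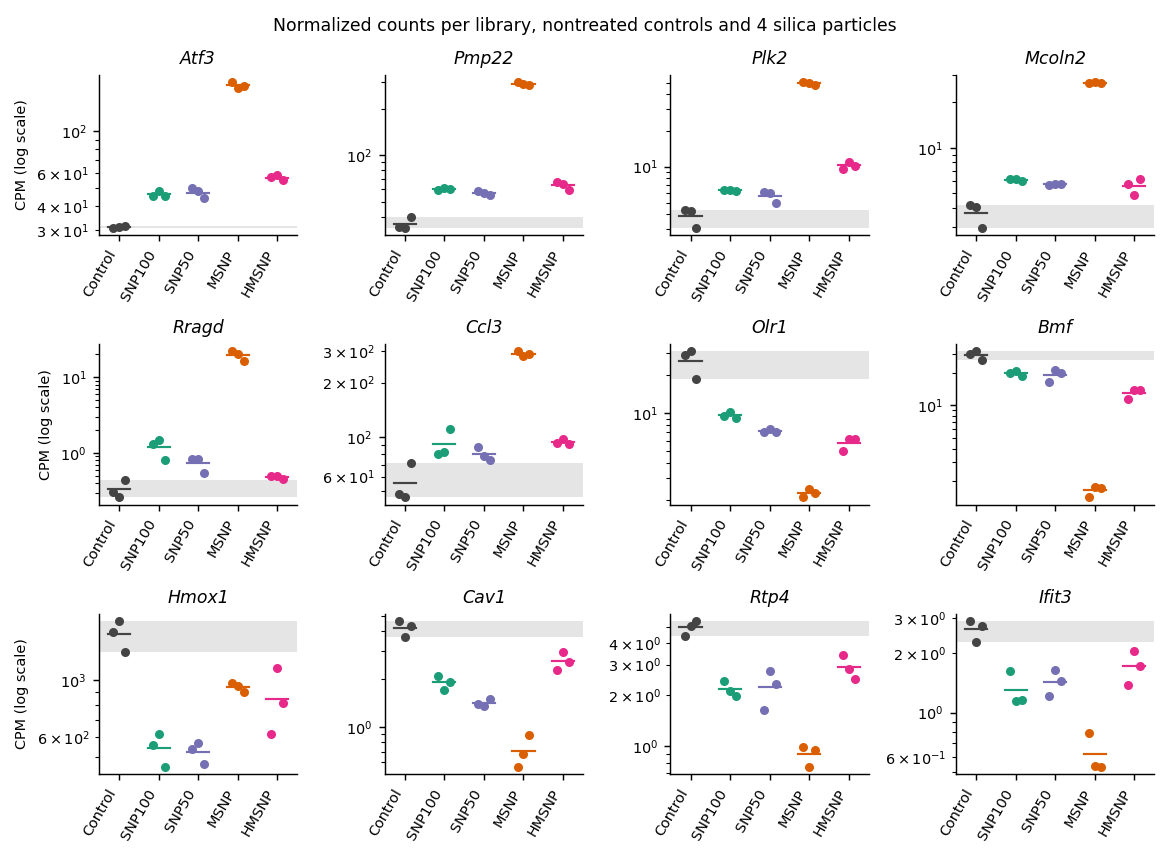
CPM of 12 shared genes in each of the 15 libraries, on log axes, with a horizontal line at each group mean and a grey band over the range of the 3 controls. Treated points lie wholly above the band for Atf3, Pmp22, Plk2, Mcoln2, Rragd and Ccl3, and wholly below it for Olr1, Bmf, Hmox1, Cav1, Rtp4 and Ifit3.

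In the 3 genes per direction with the widest gap between groups, MSNP was the group that stood apart. Rragd, a Rag GTPase that signals nutrient and lysosome status to mTORC1, had 0.305, 0.260 and 0.443 CPM in the controls. It had 0.458 to 0.504 CPM in HMSNP, 0.544 to 0.844 in SNP50, 0.803 to 1.47 in SNP100 and 16.4 to 21.9 in MSNP. The HMSNP libraries cleared Control replicate 3 by little, and neither HMSNP nor SNP50 was called on its own. The pooled log2 change was 2.31 ± 0.24, and without MSNP it was 1.161 and no longer called (adjusted p = 0.0600, edgeR). The lncRNA gene 4833415N18Rik, opposite Cpped1, had 0.122 to 0.260 CPM in controls and 0.275 to 7.03 CPM in treated libraries, and Itgb3, an integrin subunit of the vitronectin receptor, 1.48 to 2.66 and 2.72 to 33.0 CPM. Both lost their call without MSNP, with adjusted p-values of 0.0992 and 0.170. On the lower side, Ermap, an erythroid membrane protein, had 5.08 to 6.12 CPM in controls, 2.06 to 4.74 CPM in SNP100, SNP50 and HMSNP and 0.0992 to 0.216 CPM in MSNP. Pmepa1, a TGF-beta-inducible membrane protein, had 217.0 to 264.6 CPM in controls, 116 to 188 CPM in those groups and 13.4 to 15.5 CPM in MSNP. Rgs16, a regulator of G protein signalling, had 15.9, 16.7 and 17.6 CPM in controls, 8.06 to 14.1 CPM in those groups and 0.445 to 0.621 CPM in MSNP. The calls of Ermap and Pmepa1 remained without MSNP, while that of Rgs16 did not (adjusted p = 0.0797).

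Among lysosomal genes every call in the pooled contrast was in the higher direction, and most lay outside the shared set. Of 38 lysosomal hydrolases and membrane proteins, 13 were called higher and 0 lower in the pooled contrast, beside 3.99% higher and 4.07% lower over all genes, with a median pooled change of 0.18 beside -0.04. At an unadjusted p under 0.05, 22 were higher and 0 lower, and DESeq2 and limma voom also called 0 lower. The members called higher numbered 3 in SNP100, 2 in SNP50 and 30 in MSNP, and 1 member was called lower in HMSNP. Without MSNP only 1 was called, and without Control replicate 3 the count was 25. Among them Hyal1, a hyaluronidase, was the only shared gene. It had 12, 11.5 and 8.33 CPM in controls, 13.7 to 15.8 CPM in HMSNP, 19.8 to 26.5 CPM in the nonporous groups and 81.6 to 94.4 CPM in MSNP. Hyal1 shares its strand with Hyal3 and Naa80, whose reads may be mixed with its own. Gla, an alpha-galactosidase with a pooled change of 0.67, had 0.48, 0.33, 1.93 and -0.06 in SNP100, SNP50, MSNP and HMSNP. Ctsb, a cathepsin, had 0.15, 0.08, 1.14 and 0.08.

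Of 17 vacuolar ATPase subunits, 7 were called higher and 0 lower, with a median of 0.17. By unadjusted p in edgeR 9 were higher and 0 lower, and DESeq2 and limma voom called 0 lower too. Without MSNP 1 was called, and without Control replicate 3 the count was 14. Atp6v0d2, a subunit of the membrane sector, was the shared one. Its controls had 32.0, 32.5 and 26.3 CPM and its treated libraries 36.5 to 206.5 CPM with a median of 42.7, the SNP50 libraries lying lowest at 36.5 to 37.7 CPM. Its pooled change of 1.001 ± 0.067 was called with MSNP left out as well, at 0.44. Among 16 genes of the Rag GTPase, folliculin and MiT/TFE list, 7 were called higher and 2 lower. Fnip2, a folliculin partner, had 208.7, 265.9 and 105.9 CPM in controls and 271 to 1088 CPM in treated libraries. Its wide control spread was set by Control replicate 3, and its pooled change of 1.14 ± 0.18 was not called without MSNP (adjusted p = 0.149). Rragc had 130.6 to 142.3 CPM in controls and 142.7 to 420 CPM in treated libraries, with the HMSNP libraries close to the controls. Tfe3, a MiT/TFE factor, was lower in every treated library, with 157.0 to 164.9 CPM in controls and 114.7 to 155.3 CPM in treated libraries, a pooled change of -0.26 ± 0.045. Mitf, another factor of that family, was also called lower, at -0.46, with -1.43 in MSNP and 0.05 in HMSNP. The calls of Rragc and Tfe3 were lost as well with MSNP left out (adjusted p = 0.0636 and 0.169).

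**Figure D5:**
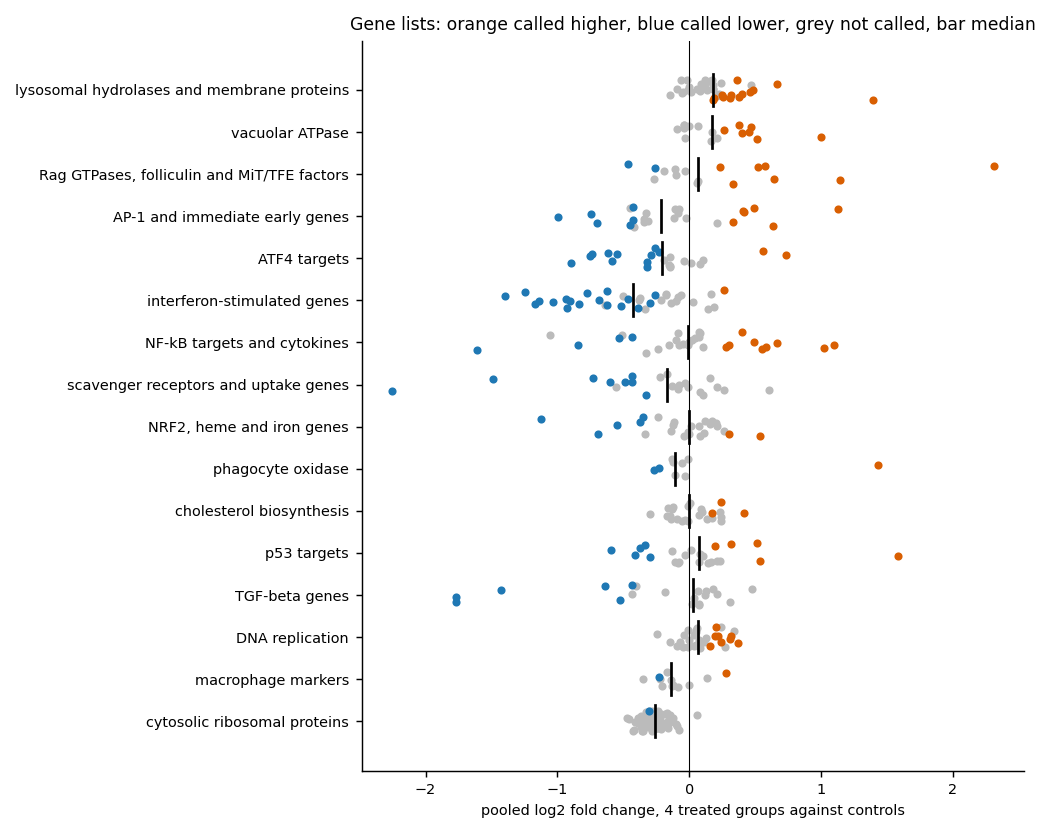
Pooled log2 fold changes of the tested members of 16 gene lists with a mean of at least 0.1 CPM, orange where called higher, blue where called lower and grey where not called, with a black bar at the median of all tested members. Lysosomal and vacuolar ATPase points extend to the right and interferon-stimulated genes to the left, where 18 of 36 were called.

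Interferon-stimulated genes were called lower in 18 of 36 members, a share that the ATF4 targets described further on reached too, with 11 of 22. Of the 36 members 1, Usp18, was called higher, and 10 of the 18 lower ones were shared genes. Among all tested genes 3.99% were called higher and 4.07% lower, and 1.01% were shared lower genes. The median pooled change was -0.43 beside -0.04 over all genes, with -0.53, -0.46, -0.70 and -0.01 in SNP100, SNP50, MSNP and HMSNP. The counts of members called lower in these groups were 8, 10, 23 and 2. Without MSNP 6 were called lower, and without Control replicate 3 the count was 23. Usp18, which dampens interferon signalling, had group changes of 0.07, 0.08, 1.36 and -0.47.

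Rtp4, an interferon-inducible chaperone of receptors, was the member called lower in each of the 4 comparisons. The controls had 4.42, 5.03 and 5.42 CPM, and the treated libraries 0.756 to 3.41 CPM with a median of 2.20. MSNP was lowest, at 0.756 to 0.992 CPM, and HMSNP highest, at 2.48 to 3.41 CPM, still below every control. The pooled change was -1.40 ± 0.13, and Gm45338 overlaps the gene on its strand. Ifit3 and Ifit1, which restrict viral RNA and have close paralogs, had control ranges of 2.26 to 2.89 and 3.32 to 3.90 CPM. Their treated ranges were 0.533 to 2.04 and 0.486 to 2.86 CPM. Cxcl10, a chemokine for T cells, had 2.75 to 3.70 CPM in controls and 0.378 to 2.49 CPM in treated libraries, a pooled change of -1.24 ± 0.13. Isg15, a ubiquitin-like modifier, had 2.46 to 3.15 CPM and 0.529 to 2.19 CPM. Irf7, the factor that amplifies interferon induction, had 7.08 to 9.24 CPM in controls and 2.84 to 6.23 CPM in treated libraries, a pooled change of -0.84 ± 0.097. Cmpk2, a mitochondrial nucleotide kinase, Mx2, an antiviral GTPase, and Xaf1, a proapoptotic protein, had pooled changes of -0.92, -1.17 and -0.63. The members named in this paragraph had under 10 CPM in every library. Without MSNP, the calls of Mx2, Isg15 and Xaf1 were lost (adjusted p = 0.247, 0.0776 and 0.087, edgeR), and Rtp4, Ifit3, Ifit1, Cxcl10, Irf7 and Cmpk2 were called again.

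Promoter letters are given here for 4 of these genes, because interferon-responsive promoters carry a known element near the start site, and a reader may wish to see it in the genes that fell. The stretches are 90 bases of the 250 bases before the transcription start, read 5′ to 3′ on the strand of the gene from RefSeq on GRCm38.p6, a build other than that of the gene positions above. Capitals mark each match to the interferon-stimulated response element core GAAANNGAA on either strand, with overlapping matches merged.
Cxcl10 (chr5:92349050-92349139, minus strand): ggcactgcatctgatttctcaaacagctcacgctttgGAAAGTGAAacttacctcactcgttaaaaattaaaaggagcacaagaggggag
Ifit1 (chr19:34640764-34640853, plus strand): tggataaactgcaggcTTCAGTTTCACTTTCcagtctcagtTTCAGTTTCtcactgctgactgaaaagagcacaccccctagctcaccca
Ifit3 (chr19:34583386-34583475, plus strand): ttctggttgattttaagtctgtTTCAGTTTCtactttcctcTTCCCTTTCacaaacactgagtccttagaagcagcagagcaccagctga
Isg15 (chr4:156200836-156200925, minus strand): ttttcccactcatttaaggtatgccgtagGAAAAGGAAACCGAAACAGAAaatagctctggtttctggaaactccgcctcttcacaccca
In the whole 250 bases before the start Cxcl10 had 1 match and the other 3 genes had 3 each, of which the Ifit3 stretch shows 2. A window of 250 bases before to 50 after the start was found for 13 of the 18 interferon-stimulated genes called lower, and 6 of the 13 (46.2%) held the core. It was present in 12.2% of the 156 shared lower genes with a window, in 8.13% of the 123 shared higher genes and in 8.87% of the windows of 11170 tested genes. The interferon core was not the only frequent motif in the 13 windows of interferon-stimulated genes called lower. The AP-1 element TGANTCA was in 5 of them (38.5%), beside 6.62% of tested genes. The antioxidant response element core TGACNNNGC was also in 5 (38.5%), beside 16.9%. The cyclic AMP response, CLEAR, ATF4 and sterol elements given further on were in 0. No share was tested. A match is a description of these letters and does not show that a factor binds there.

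NF-kB targets and cytokines moved in both directions, with 9 of 32 tested members called higher, 4 lower and a median of -0.01. In single groups 2 were called higher and 1 lower in SNP100, 1 and 2 in SNP50, 9 and 12 in MSNP, and 10 and 2 in HMSNP. The medians were -0.01, -0.02, -0.15 and 0.24 in the same order. Ccl3, a macrophage chemokine, had 48.0, 46.0 and 71.6 CPM in the controls and 74.6 to 298.6 CPM in the treated libraries, with a median of 91.7. Control replicate 3 lay near the lowest treated library, from SNP50, and the pooled change was 1.10 ± 0.13 (adjusted p = 5.22e-05, edgeR). Ccl4, its neighbour in function, had a pooled change of 1.02 with 0.46, 0.46, 2.33 and 0.82, but its control libraries overlapped the treated ones. Cd80, a costimulatory ligand for T cells, had 2.55 to 3.08 CPM in controls and 3.54 to 6.32 CPM in treated libraries, and Nfkb2, an NF-kB subunit, 41.3 to 42.5 CPM and 44.4 to 65.7 CPM. HMSNP was highest in both, at 5.54 to 6.32 CPM and 63.0 to 65.7 CPM. The call of Nfkb2 was lost with HMSNP left out. The members called lower were Ptgs2, the inducible cyclooxygenase, at -0.84, Nfkbiz at -0.53, Socs3 at -0.43, and Il10, which had 0.231 to 0.286 CPM in controls and at most 3 counts in every MSNP library, so that no fold is given. Tnf had a pooled change of 0.10 that was not called (adjusted p = 0.607).

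Of 25 AP-1 and immediate early genes, 6 were called higher and 6 lower. The shared ones were Atf3, described above, and Jun, an AP-1 subunit. Jun had 59.0, 57.7 and 57.2 CPM in the controls and 61.5 to 162.8 CPM in the treated libraries, with a median of 80.4. The HMSNP libraries, at 61.5 to 62.7 CPM, were just above the controls and not called on their own, and the pooled change was 0.64 ± 0.049. Fos, the usual partner of Jun, was called lower at -0.996, with -0.33, -0.28, -3.37 and -0.01, so its libraries overlapped the controls. Fosl2 was called lower at -0.75 and Egr1 higher at 0.49, with 0.05 in MSNP. Without MSNP 3 members were called, all of them higher.

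Since AP-1 and ATF factors bind short known elements, the promoter stretches of 4 genes called in all 4 comparisons are shown, with the match in capitals and read as before from RefSeq on GRCm38.p6. Olr1 and Cd207 hold the AP-1 element TGANTCA, and Plk2, which rose, and Rcan1, which fell, hold the cyclic AMP response element TGACGTCA.
Olr1 (chr6:129507178-129507267, minus strand): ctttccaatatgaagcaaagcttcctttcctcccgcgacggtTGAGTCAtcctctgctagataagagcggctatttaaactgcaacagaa
Cd207 (chr6:83677858-83677947, minus strand): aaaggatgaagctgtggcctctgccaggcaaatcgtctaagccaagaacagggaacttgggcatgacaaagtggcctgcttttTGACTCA
Plk2 (chr13:110394941-110395030, plus strand): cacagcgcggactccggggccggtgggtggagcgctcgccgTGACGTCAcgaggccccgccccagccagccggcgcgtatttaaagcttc
Rcan1 (chr16:92400205-92400294, minus strand): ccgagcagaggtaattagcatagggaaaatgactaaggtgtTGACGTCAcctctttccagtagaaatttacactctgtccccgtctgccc
The AP-1 element was found, on either strand, in the windows of 14.7% of shared lower genes, 8.94% of shared higher genes and 6.62% of tested genes. The cyclic AMP response element was found in 1.92%, 4.88% and 3.39%. The lysosomal CLEAR core TCACGTGA was in 2.56%, 3.25% and 2.05%, the antioxidant response element core TGACNNNGC in 18.0%, 20.3% and 16.9%, the ATF4 element TGATGNAAT in 0.641%, 0.813% and 0.546%, and the sterol element TCACNCCAC in 1.92%, 2.44% and 1.40%. These shares were not tested.

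Of 23 scavenger receptors and uptake genes, 8 were called lower and 0 higher in the pooled contrast, with a median of -0.17. The shares over all genes were 4.07% lower and 3.99% higher. At an unadjusted p under 0.05 in edgeR 3 were higher and 10 lower, and DESeq2 called 1 higher and limma voom 6. Single groups had calls in both directions. SNP100 had 0 higher and 4 lower and SNP50 0 and 5, while MSNP had 4 and 12 and HMSNP 3 and 4. Besides Olr1 and Cav1, the shared members were Cxcl16, a membrane-bound chemokine that also takes up oxidised lipoprotein, and Itgb5, an integrin subunit. Cxcl16 had 165.2 to 223.0 CPM in controls and 68.7 to 163.0 CPM in treated libraries, so SNP50 reached almost to the lowest control, and its call was lost without MSNP (adjusted p = 0.0636). Itgb5 had 261.0 to 293.7 CPM in controls and 129.7 to 256.2 CPM in treated libraries, and its call remained. Cd36 and Clec7a, receptors for lipids and beta-glucan, were called lower at -0.44 and -0.43, but had 0.38 and 0.66 in HMSNP and negative values in the other 3 groups.

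In the list of NRF2, heme and iron genes, 5 of 25 were called lower and 2 higher. The single groups differed, with 0 higher and 4 lower in SNP100, 0 and 8 in SNP50, 13 and 5 in MSNP, and 5 and 2 in HMSNP. Their medians were -0.19, -0.23, 0.31 and 0.13 in the same order. With MSNP left out, 0 members were called higher and 5 lower. With Hmox1, the shared lower members were Akr1b8, an aldo-keto reductase, with 115.0 to 139.2 CPM in controls and 48.7 to 112.2 CPM in treated libraries, and Me1, the malic enzyme, with 59.4 to 71.7 CPM and 40.5 to 58.7 CPM. Gclm, a subunit of the enzyme that begins glutathione synthesis, was called lower at -0.55 with -0.05 in HMSNP, and Slc48a1, a heme transporter, at -0.35 with values near 0 in MSNP (0.02) and HMSNP (-0.01). Slc11a2, an iron importer, was a shared higher gene with 60.7 to 64.4 CPM in controls and 65.1 to 197.0 CPM in treated libraries, and its call was lost without MSNP (adjusted p = 0.202). Nfe2l2, which encodes NRF2 itself, was called higher at 0.30.

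Among 9 phagocyte oxidase genes, Hvcn1, the voltage-gated proton channel, was called higher at 1.43, with 3.33 in MSNP and 0.15 in HMSNP, and Ncf1, a cytosolic oxidase subunit, was called lower at -0.23. Ncf1 was a shared gene with 577.2 to 618.2 CPM in controls and 392.8 to 577.1 CPM in treated libraries, which only just clears the lowest control, and its call was lost with MSNP left out (adjusted p = 0.490) or with the length offset. Of 22 TGF-beta genes, 6 were called lower and 0 higher, among them Tgfbi, Pmepa1, Smad7, Skil and Id1, with a list median of 0.03. By unadjusted p in edgeR 3 were higher and 8 lower, DESeq2 called 1 higher and limma voom 3. Without MSNP 3 members of this list were called lower. In single groups 0 were called higher and 2 lower in SNP100, and 0 and 3 in SNP50. MSNP had 3 higher and 9 lower, and HMSNP 2 and 3.

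ATF4 targets, induced when translation is restrained by amino acid or endoplasmic reticulum stress, did not move together across particles. In the pooled contrast 11 of 22 tested members were called lower and 2 higher, but the medians were -0.18, -0.25, 0.36 and -0.80 in SNP100, SNP50, MSNP and HMSNP. In MSNP 12 were called higher and 2 lower, and in HMSNP 17 were called, all lower. Ddit4 was the only member among the shared genes. Trib3, a pseudokinase, had a pooled change of -0.58 made of -0.45, -0.50, 1.33 and -2.71, and Chac1, which degrades glutathione, -0.74 made of -0.24, -0.38, 0.65 and -2.99. Ddit3, the stress factor CHOP, was called higher at 0.74 with -0.70 in HMSNP. For these genes the pooled value describes no single group.

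Of 32 DNA replication genes, 8 were called higher and 0 lower, and 5 of the 8 were shared. Among all tested genes 3.99% were called higher and 4.07% lower, and 0.837% were shared higher genes. By unadjusted p in edgeR 12 were higher and 0 lower, and DESeq2 and limma voom called 0 lower. Without Control replicate 3 the count was 18, and without MSNP 2. The single groups were less uniform, with 0 called in SNP100 and 4 higher and 0 lower in SNP50. In MSNP 5 were called higher and 3 lower, and in HMSNP 5 higher and 1 lower. Orc1, of the origin recognition complex, had 18.5, 18.6 and 18.8 CPM in the controls and 21.9 to 30.1 CPM in treated libraries, with a median of 23.2 and a pooled change of 0.37 ± 0.052. Mcm2 and Mcm3, subunits of the replicative helicase, had 198.6 to 226.9 and 266.6 to 287.5 CPM in controls and 247 to 298 and 308.5 to 332.7 CPM in treated libraries. Mcm10, a helicase cofactor, had 60.5 to 69.4 CPM and 72.1 to 83.9 CPM. The pooled changes of these 3 genes were 0.32, 0.21 and 0.22. Mcm2 had group changes of 0.25, 0.25, 0.43 and 0.34, and Mcm10 of 0.16, 0.19, 0.19 and 0.35, SNP100 and SNP50 first and HMSNP last. No difference among the treated groups was called for Mcm2, Mcm3 or Mcm10 (adjusted p = 0.098, 0.57 and 0.11, edgeR F test), which does not show that their changes are equal. Without MSNP the calls of these 3 genes were lost (adjusted p = 0.0583, 0.103 and 0.0871), and that of Mcm10 also with HMSNP left out or with the length offset.

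Of 23 p53 targets 5 were called higher and 5 lower. The shared ones were Plk2, Sesn1, Pmaip1, a BH3-only protein with 10.8 to 12.1 CPM in controls and 12.2 to 22.7 CPM in treated libraries, and Tnfrsf10b, a death receptor with 4.94 to 5.12 and 5.19 to 9.70 CPM. For Tnfrsf10b the HMSNP libraries were highest and its call was lost without them. Cdkn1a, the p53-induced cell cycle inhibitor, was called lower at -0.30, with 0.20 in HMSNP. Cholesterol biosynthesis had 3 of 24 members called higher, Insig1, Hmgcs1 and Dhcr7, with a median of 0.00, and none was shared. The medians in single groups differed in sign, with -0.10, -0.24, 0.17 and 0.27 in SNP100, SNP50, MSNP and HMSNP. The members called were 0 in SNP100, 4 lower in SNP50, 9 higher and 2 lower in MSNP, and 12 higher in HMSNP. Among 12 macrophage markers, Cd68, a lysosomal glycoprotein, was called higher at 0.28 and was shared, with 922.8 to 995.7 CPM in controls and 1000.9 to 1570 CPM in treated libraries, and Fcgr1, an Fc receptor, was called lower at -0.23. The call of Cd68 was lost without MSNP (adjusted p = 0.322). Only 3 of the 12 markers had a pooled change above 0, and the list median was -0.14, or -0.03 without Control replicate 3. In MSNP 1 marker was called higher and 6 lower, and 0 were called in the other groups. Of 86 cytosolic ribosomal protein genes 1, Rpl7, was called, lower, although the median over the list was -0.26. That median was 0.06 without Control replicate 3. By unadjusted p in edgeR 39 were lower and 0 higher. In single groups 23 were called lower in MSNP and 3 in HMSNP, and 0 in SNP100 and SNP50. Rpl7 itself had 958 CPM in Control replicates 1 and 2 and 1369 CPM in Control replicate 3.

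Remaining genes named by rank on the lower side had modest levels. Il13ra2, a decoy receptor for interleukin 13, had 1.97 to 2.92 CPM in controls and 0.595 to 1.78 CPM in treated libraries, and Rap1gap, which inactivates the GTPase Rap1, 1.64 to 1.86 and 0.351 to 1.25 CPM. Rbfox1, an RNA-binding splicing regulator, had 3.70 to 4.58 and 0.793 to 3.44 CPM. Their pooled changes were -1.03, -1.09 and -1.05, and all 3 were called again without MSNP.

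The genes nearest to the threshold show how little separates members from the rest. Just inside it on the higher side were Pola2, a subunit of DNA polymerase alpha, with a pooled change of 0.15, and the pseudogene Gm13394 with 0.18, at adjusted p-values of 0.0483 and 0.0493 (edgeR). Just outside were Gen1, a resolvase, with 0.29 and Nup107, a nuclear pore protein, with 0.14, at 0.0553 and 0.0583. On the lower side Pkm, a pyruvate kinase, with -0.16 and Zfp119b, a zinc finger protein, with -0.47 were just inside at 0.0495 and 0.0498, and Nudt21, which acts in RNA 3′ end formation, with -0.28 and Stard7, a lipid transfer protein, with -0.14 just outside at 0.0518 and 0.0622. All 8 had all treated libraries on one side of all controls.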

How the data were processed

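Poly(A) RNA of RAW 264.7 cells was sequenced in 15 libraries. The authors prepared directional libraries, and the submitters' processing notes name cutadapt 1.16, STAR 2.7.9a and featureCounts 1.6.3 with GRCm39. The deposited values are whole-number counts per gene and library, not normalized. The strand setting, the annotation and the counting of pairs are not given in the sources used here, so genes that overlap on either strand may share reads, among the named ones Ankrd37, Cav1, Rap1gap, Rbfox1, Galnt6, Hk3, Pacc1, Pdcd4, Tmbim1, Olfml3, Neurl3, Ermap, Rgs16, Rragd, Baiap2l1 and Gm10419 with a gene on the opposite strand. Symbols came from GENCODE vM39, which held 56630 of the 57186 identifiers, and the other 556 carried 0.0224% of the counts.

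Groups came from the sample titles. Genes with at least 10 counts over all libraries were fitted in R 4.3.3 with edgeR 4.0.16 (TMM, 1 coefficient per group, quasi-likelihood test, Benjamini-Hochberg adjustment, threshold 0.05). The study's own test, DESeq2, served as an alternative (1.42.0), as did limma 3.58.1 voom with quality weights, RLE scaling, filterByExpr, no filter, the replicate number as a block, a length offset (lowess span 0.3), and leaving out each library or treated group. A standard error is the fitted change divided by the root of its F value. Totals were 29369934 to 42617812 counts per library. A group with at most 3 counts in every library was treated as a floor.

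The members and gene lists were chosen with earlier results of these data known. Named are, among called, non-overlapping genes of at least 1 CPM, the 12 per direction with the largest change in their least-changed group, and the 3 per direction with the widest gap between groups. Also named are genes called in all 4 comparisons (the first 15 per direction in full), list members, the 2 genes per direction on each side of the threshold, and Atf3, Pald1 and Pmp22. Promoter letters came from RefSeq (GRCm38.p6), matched by symbol for 11170 tested genes. Some genes that these rules name are not reported here.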

Additional observations from a re-analysis of the deposited data

How the results depend on the processing

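Across 27 alternatives, the pooled change of each of 84 genes named by rank, by list or at the threshold kept its direction, and 53 kept their side of the threshold throughout. These 84 of 484 named genes were chosen for not overlapping the controls or for calls in all 4 comparisons. Their kept direction was thus largely fixed by the choice, and nothing is read from it. List members outside the shared genes were not among them. With the MSNP group left out 25 lost the call, and with HMSNP left out 7. Leaving out 1 library at a time gave 665 to 2172 genes called higher and 631 to 2182 lower, 183 to 511 and 222 to 549 without overlap, and 150 to 448 and 172 to 420 with both properties. It gave 5 to 72 and 8 to 101 genes called in all 4 comparisons, 56 to 114 and 65 to 159 list members, and 3677 to 9665 genes that differed among treated groups. The high ends came from leaving out Control replicate 2 or 3, and the lowest count of 8 from leaving out SNP100 replicate 2.

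With MSNP left out, 64 genes were called higher and 137 lower, 45 and 98 were also without overlap, 5 and 14 were called in every remaining comparison, 15 and 31 list members were called, and 728 genes differed among the remaining groups. With HMSNP left out, 364 and 459 genes had no overlap, 286 and 348 were also called, and 38 were called higher in every remaining comparison. With SNP50 left out, 338 genes were higher without overlap. The voom model with quality weights called 2591 and 2642 genes, 193 and 216 in all 4 comparisons, and 141 list members higher. DESeq2 called 43 and 63 genes in all 4 comparisons, filterByExpr gave 42 lower there, and the length offset 22 and 47. The length offset without Control replicate 3 gave 1369 and 1423 called genes, 457 and 638 without overlap, 375 and 474 with both, 79 and 142 in all 4 comparisons, 108 list members higher and 9702 genes that differed among groups. With only the 12 treated libraries in the model, 9993 genes differed among groups. The cause of these shifts was not tested.

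With the replicate number as a block, 744 genes were called higher and 707 lower, 156 and 190 with no overlap, and 12 and 21 in all 4 comparisons. Same-numbered libraries had correlations of their deviations from the group means between -0.517 and 0.573 (median 0.0156, 30 pairs), beside -0.758 to 0.716 (median -0.0148, 60 pairs) for other numbers. No pairing by number was seen, but with so wide a spread these values cannot tell whether the numbers pair the libraries. Low genes rest on few counts, doses were unequal, each group had a title number of its own, and 3 control libraries served every comparison.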
